A study of Arabidopsis thaliana with 24 samples.

Results

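The genes described here are 48 splicing factor genes of Arabidopsis thaliana, out of 33602 genes in the count tables. They were taken by locus identifier for their place in the spliceosome: 7 genes for the Sm proteins D2, E, F and G, 10 for LSm proteins other than LSM4, 9 for U1 snRNP proteins and the U1-associated LUC7, PRP39 and PRP40 factors, 8 for U2 snRNP and U2AF proteins, 5 for U5 proteins, 3 for U4/U6 and tri-snRNP proteins, and 6 for the Prp19 complex (NTC), with the late-acting factor PRP18 counted there. Names are those in common use. Where RefSeq gives only a locus or a protein family (SmD2a, SmD2b, SmEa, SmEb, SmGb, U1C, LUC7B, LUC7RL, U2AF65B, SF1, SF3B1, PRP8B, BRR2B, PRP18), they are working names after that family.

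RNA was counted in whole seedlings of 8 groups with 3 libraries each, 24 in all. The groups were prmt5-5 and wild-type (WT) seedlings of the accession Columbia (Col), prmt5-5 and WT seedlings of Landsberg erecta (Ler), and prmt5-5 and WT seedlings of the reciprocal hybrids F1 Col x Ler and F1 Ler x Col. Seedlings stood for 9 days in continuous light at 22 °C on agar medium after 4 days of stratification. The prmt5-5 allele came from Col-0 and was moved into Ler over 7 backcross generations, and the mutant hybrids had a prmt5-5 parent from each accession, so that all copies of PRMT5 in them carry the mutation. The labels do not say whether replicates came from separate sowings, so each p-value reflects the spread among these libraries alone, which may be technical. In such bulk RNA, fewer cells of a type and less RNA per cell cannot be told apart.

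Introns are removed by the spliceosome, which is assembled from small nuclear ribonucleoproteins (snRNPs). U1 pairs with the donor splice site, U2 with the branch point helped by U2AF at the acceptor site, and the U4/U6.U5 tri-snRNP then joins and is remodelled, with the NTC, into the catalytic form. Sm proteins form a ring around the U1, U2, U4 and U5 RNAs and LSm proteins one around U6, while a related LSm ring with LSM1 acts in mRNA decay. PRMT5 places symmetric dimethylarginine on Sm proteins, among other substrates, and plants that lack it are known for widespread splicing defects, most of all at donor sites.

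The largest change among the 48 genes was that of PRP40B, and its paralog PRP40A and the tri-snRNP gene STA1 are the comparators that recur below. The 250 bases before the annotated start of these 3 genes are shown to set the changed copy of the pair beside the other one (RefSeq, TAIR10.1, 5′ to 3′ on the strand of the gene). They lie at chr3:6837506-6837755 on the minus strand for PRP40B, chr1:16975354-16975603 on the plus strand for PRP40A and chr4:1520564-1520813 on the minus strand for STA1. Capitals mark the site II elements TGGGCC and TGGGCT read on either strand.
PRP40B: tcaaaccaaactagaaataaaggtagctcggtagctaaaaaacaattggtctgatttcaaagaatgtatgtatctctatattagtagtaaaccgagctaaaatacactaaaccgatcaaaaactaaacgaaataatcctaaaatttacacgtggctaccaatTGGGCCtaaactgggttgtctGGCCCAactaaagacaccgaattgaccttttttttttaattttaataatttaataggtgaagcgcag
PRP40A: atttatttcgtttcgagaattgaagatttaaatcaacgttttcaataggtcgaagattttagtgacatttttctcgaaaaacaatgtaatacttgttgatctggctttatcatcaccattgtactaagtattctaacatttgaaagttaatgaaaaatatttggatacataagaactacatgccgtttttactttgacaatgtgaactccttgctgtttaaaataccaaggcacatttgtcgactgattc
STA1: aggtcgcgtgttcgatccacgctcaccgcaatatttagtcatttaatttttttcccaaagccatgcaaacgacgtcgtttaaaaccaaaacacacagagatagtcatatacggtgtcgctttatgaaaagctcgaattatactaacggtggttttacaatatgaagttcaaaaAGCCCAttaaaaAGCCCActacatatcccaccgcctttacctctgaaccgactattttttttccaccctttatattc
The PRP40B window held TGGGCC at -88 to -83 on the strand of the gene and again at -67 to -62 on the other strand, counted back from the annotated start. The STA1 window held TGGGCT at -77 to -72 and -65 to -60, both on the other strand. No element of either form was found in these bases before PRP40A.

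Site II elements were common before the 48 genes. TGGGCC stood on either strand in 43.8% of their windows (21 of 48) and in 13.6% of the windows of the 27395 other protein-coding genes. The other genes were taken whether or not they were expressed in these seedlings. U2A and CDC5 are divergent neighbours whose windows share bases, so the same TGGGCC copies count for both. The windows of LUC7A and LSM6A lie wholly inside another gene. TGGGCT stood in 33.3% of the member windows, against 12.3% of the others, and the telo-box AAACCCTA in 8.3% against 4.48%. Both site II forms share all letters but the last, and no member window held copies on both strands that overlap. At least 1 of the 3 motifs stood before 8 of the 12 genes that rose in Col and 19 of the other 36, and in Ler before 13 of the 25 that rose and 14 of the other 23.

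Splicing factor genes were more often higher than lower in prmt5-5 of every background. In Col 12 of the 48 rose and 0 fell, where 14.6% of all 22924 genes tested rose, 12.3% fell and 26.9% changed in either direction. In Ler 25 rose and 1 fell, where 18.9% of all genes rose, 16.9% fell and 35.7% changed. The median log2 fold change of the 48 was 0.172 in Col and 0.243 in Ler, and that of all genes tested was 0.006 in Col and 0.008 in Ler. In the hybrids only reads assigned to an allele were counted, by a rule that is not stated, and 35 of the 48 had enough of them to be tested. Of these, 3 rose and 0 fell in F1 Col x Ler, where 3.7% of 17301 genes rose, 1.85% fell and 5.55% changed, and 8 rose and 0 fell in F1 Ler x Col, where 6.91% rose, 6.43% fell and 13.3% changed. The other 13 (SmD2b, SmEa, SmEb, SmF, SmGa, LSM1A, LSM2, LSM5, LSM6B, U1A, U1-70K, PRP39A and PRP31) had between 5 and 95 allele counts over all 12 hybrid libraries. The comparisons within one accession share no samples with those in the hybrids, but F1 levels cover a part of each gene's reads and are not comparable with parental levels.

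The number of calls in Col and Ler moved with single libraries. Without Ler prmt5-5 replicate 1 the Col count was 19 (all parental libraries share 1 estimate of the spread), and without Ler WT replicate 2 the Ler count was 17. Libraries also differed in the balance of short and long transcripts. The median deviation of transcripts under 1100 bases minus that of transcripts of 3000 bases or more was 0.267 on the log2 scale in Ler prmt5-5 replicate 1, -0.165 and -0.144 in Col prmt5-5 replicates 2 and 3, and 0.182 in Col WT replicate 2. With this index as a covariate, 26 members rose in Col and 34 rose and 1 fell in Ler, against 32% and 42.7% of all genes called in either direction. Among the 18 short members the median log2 fold change was 0.143 in Col and 0.261 in Ler, against -0.034 and 0.024 for all short genes, and among the 12 long ones it was 0.341 and 0.238, against 0.091 and 0.048.

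**Figure D1:**
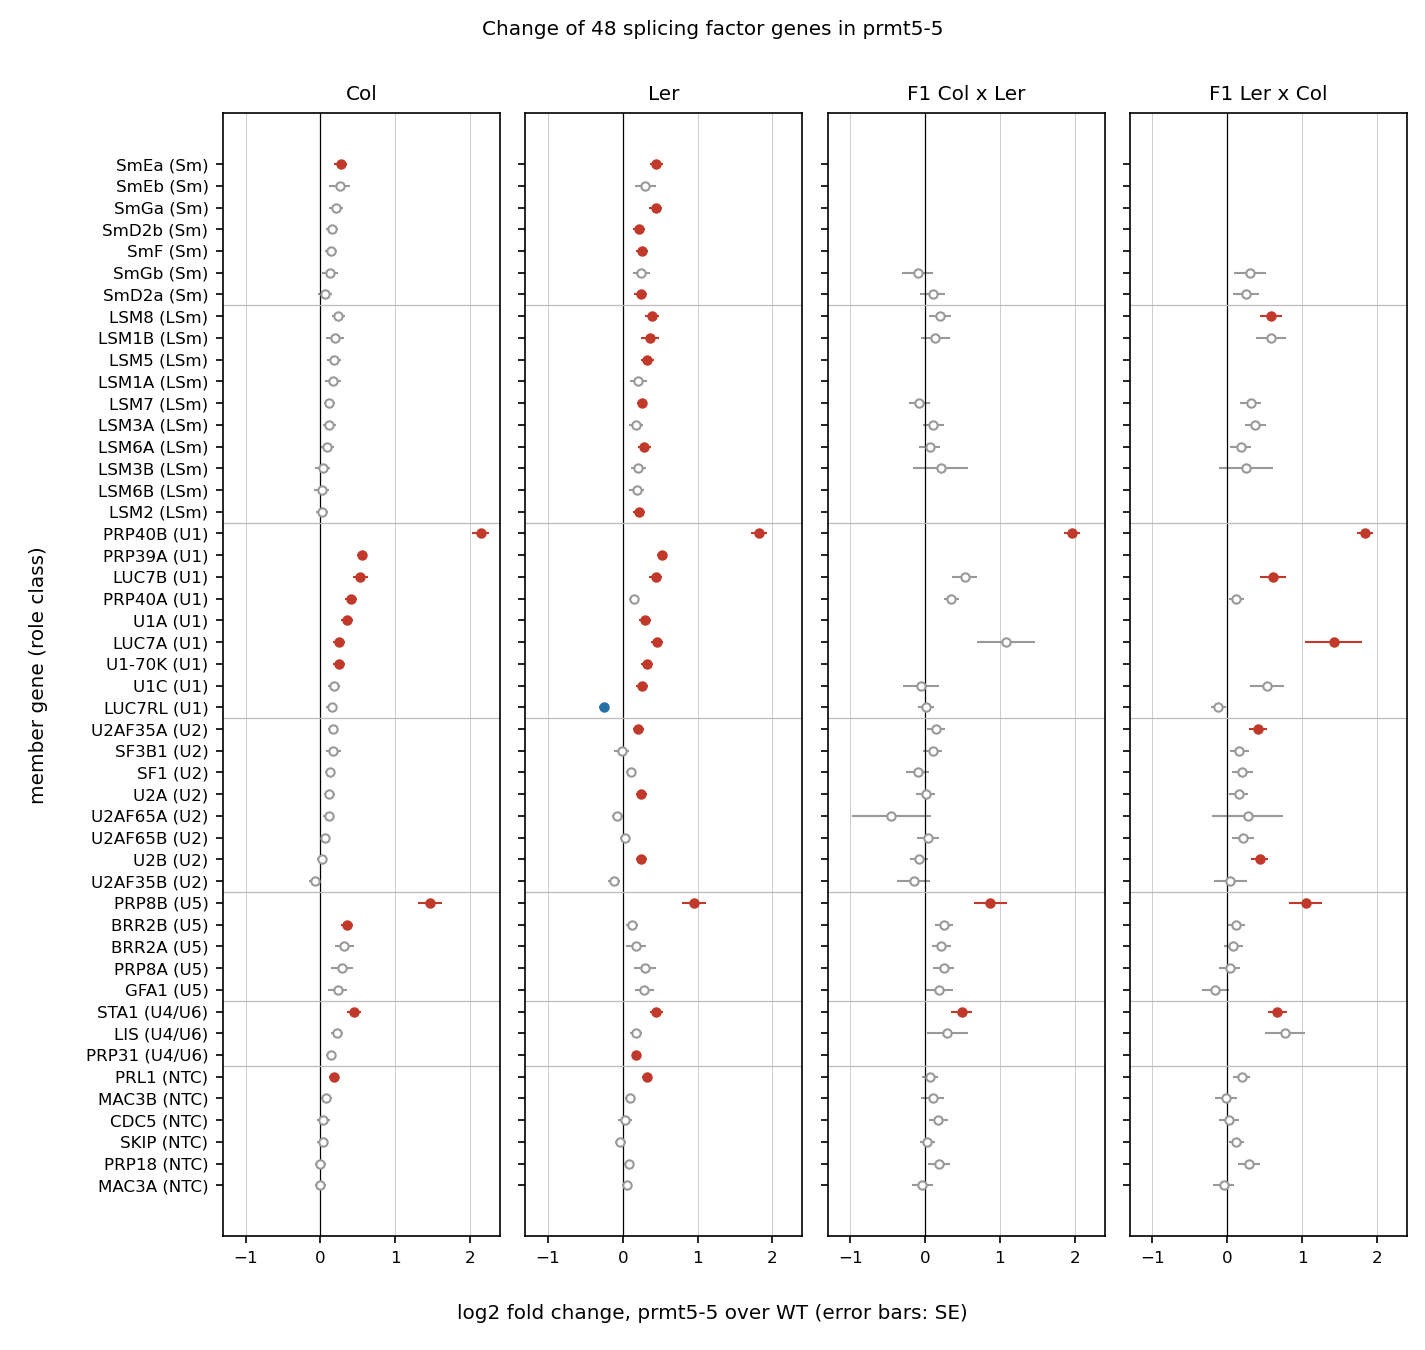
Log2 fold change of prmt5-5 over WT for the 48 genes (rows, by role class) in 4 backgrounds (panels), with SE as bars; filled red points rose, the filled blue point fell, and open grey points did not pass the test. PRP40B, PRP8B and STA1 are red in all 4 panels, and the 13 genes without enough allele counts have no point in the hybrid panels.

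The U1 class held the most changes. In Col 7 of its 9 genes rose, where 14.6% of all genes did. In Ler 7 rose and 1 fell, where 18.9% of all genes rose and 16.9% fell. PRP40B (AT3G19670), which encodes a protein that in yeast bridges U1 to the branch point side of the intron, had 194, 163 and 169 CPM (counts per library size, adjusted with TMM factors) in Col prmt5-5, against 39.6, 40.5 and 39.6 CPM in Col WT. In Ler it had 169, 128 and 135 CPM in prmt5-5 and 44.2, 37.7 and 40.6 CPM in WT. The lowest mutant library thus lay far above the highest WT library in both accessions. The log2 fold change was 2.14 in Col (SE 0.11, adjusted p = 2.82e-08) and 1.82 in Ler (SE 0.11, adjusted p = 5.41e-08, n = 3 libraries per group), and the difference between the accessions did not pass the test (-0.32, SE 0.15, adjusted p = 0.267).

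PRP40B also rose in both hybrids, which are other plants. It had 159, 165 and 146 CPM in F1 Col x Ler prmt5-5, against 37.1, 44.7 and 39 CPM in its WT, and 157, 142 and 164 CPM in F1 Ler x Col prmt5-5, against 40.5, 43.3 and 45.1 CPM in its WT. The rises were 1.96 (SE 0.11, adjusted p = 9.93e-07) and 1.84 (SE 0.11, adjusted p = 1.29e-06) on the log2 scale. Both alleles took part: the Ler allele gave 48.4% of 11669 allele counts of PRP40B in prmt5-5 hybrids and 46.7% of 3457 in WT hybrids (95% exact binomial intervals 47.5% to 49.3% and 45% to 48.4%, which cover counting error only). In Col WT the level of PRP40B per length was 11.1 CPM per kilobase of exon, beside 11 for PRP40A.

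PRP40A (AT1G44910), the second PRP40 gene, moved much less. It had 44.7, 49.5 and 47.9 CPM in Col prmt5-5 and 36.7, 32.7 and 37.3 CPM in Col WT, a rise of 0.41 (SE 0.08, adjusted p = 0.00122) with no overlap between the groups. In Ler the values were 47.9, 54.1 and 55.4 CPM in prmt5-5 and 47.4, 48.5 and 46.1 CPM in WT, which overlap, and the change did not pass the test (0.15, SE 0.07, adjusted p = 0.14). The balance of the pair differed between genotypes. PRP40A made up 23.1% of the summed CPM per kilobase of the pair in Col prmt5-5 (SD 2.45, n = 3) and 49.6% in Col WT (SD 2.1), and 29% in Ler prmt5-5 (SD 4.41) and 56.2% in Ler WT (SD 2.3). In the hybrids, where the counted part of each gene differs, its share was 51.5% in F1 Col x Ler prmt5-5 against 76.5% in WT, and 48.4% in F1 Ler x Col prmt5-5 against 75.5% in WT.

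**Figure D2:**
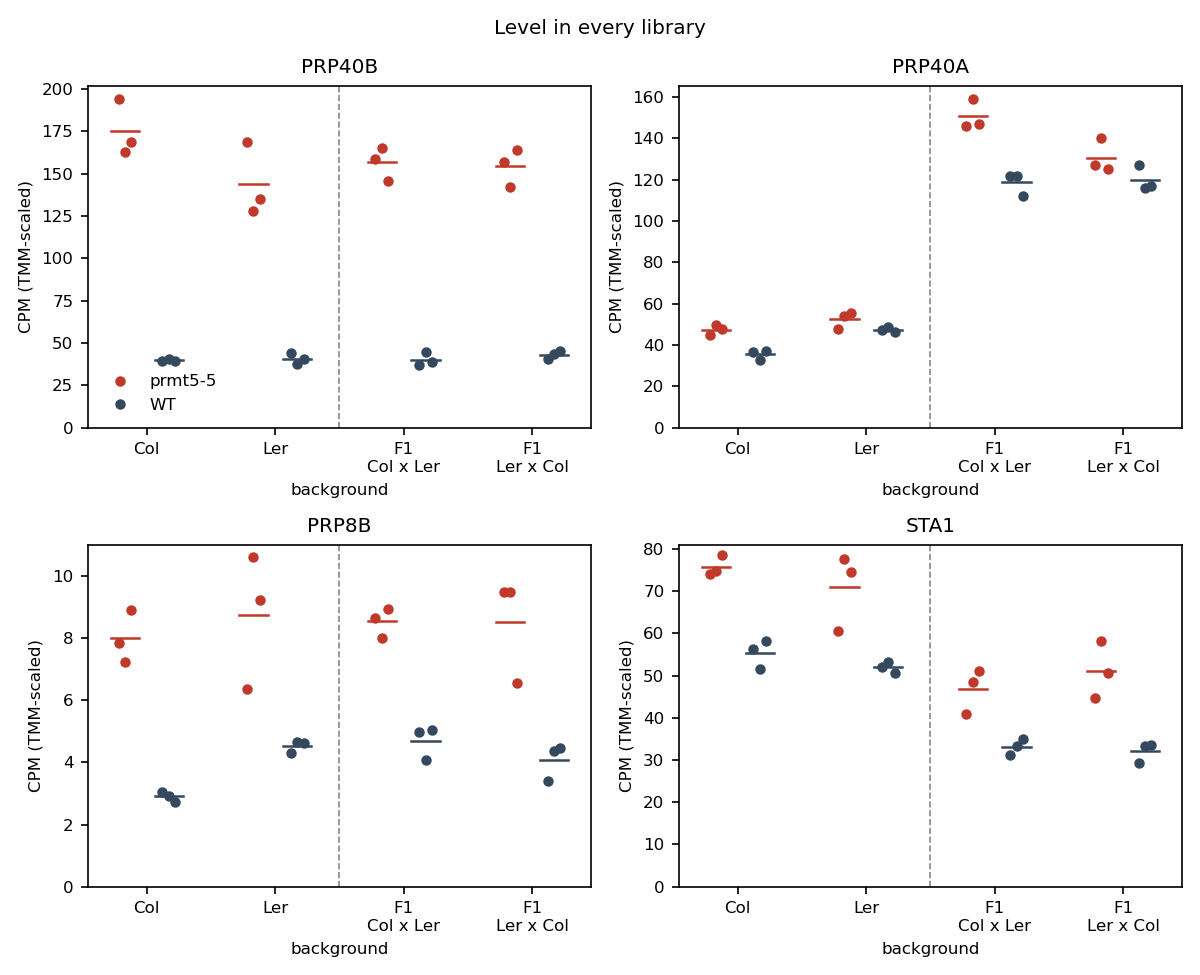
CPM of PRP40B, PRP40A, PRP8B and STA1 in each of the 24 libraries (points, 3 per group; short lines are means), prmt5-5 in red left of WT in dark blue; hybrid values to the right of the dashed line count only reads assigned to an allele. PRP40B lies between 128 and 194 CPM in the 12 prmt5-5 libraries and between 37.1 and 45.1 CPM in the 12 WT libraries.

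Other U1 genes shifted by less than 1 log2 unit in the parents. PRP39A (AT1G04080), whose yeast counterpart is a U1 subunit needed for donor site commitment, had 175, 172 and 167 CPM in Col prmt5-5 against 118, 116 and 117 CPM in Col WT, and 170, 181 and 180 CPM in Ler prmt5-5 against 124, 121 and 126 CPM in Ler WT. The replicates of each group lay close together and the groups did not overlap, with rises of 0.55 (SE 0.06, adjusted p = 3.33e-05) in Col and 0.52 (SE 0.06, adjusted p = 3.81e-05) in Ler. LUC7 proteins belong to U1 and influence the choice of donor site. LUC7B (AT5G17440) had 41.3, 39.4 and 39.3 CPM in Col prmt5-5 against 26.9, 29.4 and 26.8 CPM in Col WT, and 54.1, 43.3 and 40.6 CPM in Ler prmt5-5 against 36.2, 31.6 and 34 CPM in Ler WT. It rose by 0.53 (SE 0.10, adjusted p = 0.00107) in Col, by 0.44 (SE 0.09, adjusted p = 0.00276) in Ler and by 0.61 (SE 0.17, adjusted p = 0.0256) in F1 Ler x Col, and in F1 Col x Ler the change was 0.53 (adjusted p = 0.0844). The F1 Ler x Col call was lost without WT replicates 1 or 3 or prmt5-5 replicates 1 or 3 of that cross, with an adjusted p of up to 0.0903.

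LUC7A (AT3G03340), the close paralog of LUC7B, had 29.1, 31.5 and 30.1 CPM in Col prmt5-5 and 27.2, 23.2 and 26 CPM in Col WT, and 36.7, 34.2 and 31.7 CPM in Ler prmt5-5 and 24.4, 24 and 26 CPM in Ler WT. It rose by 0.25 (SE 0.08, adjusted p = 0.0292) in Col, a call that was lost in 4 of the 12 fits that each left out 1 library, and by 0.46 (SE 0.08, adjusted p = 0.000426) in Ler. In F1 Ler x Col it rose by 1.42 (SE 0.38, adjusted p = 0.0242, lost in 4 of 12 such fits with adjusted p up to 0.0707), and in F1 Col x Ler the change was 1.08 (adjusted p = 0.137), both on 13 to 103 allele counts per library. In Ler and the hybrids, the effect of prmt5-5 on LUC7A and that of Col DNA kept nearby cannot be told apart. The Ler shares of its neighbours are given below. U1A and U1-70K, proteins that bind the U1 RNA itself, rose in both accessions. U1A had 40.5, 43.5 and 42 CPM in Col prmt5-5 against 29.2, 34.4 and 34.7 CPM in Col WT, a change of 0.36, and changed by 0.30 in Ler. The U1A gene body overlaps the noncoding RNA gene AT2G09945 on the other strand by 1034 bases, so its counts are uncertain where strand was not used. U1-70K changed by 0.25 in Col, a call lost in 7 of the 12 such fits, and by 0.33 in Ler, and U1C, the zinc finger protein beside the donor site, rose in Ler only by the test (0.26, against 0.18 with an adjusted p of 0.0907 in Col), with no difference between the accessions past the test (0.08, adjusted p = 0.769).

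LUC7RL (AT5G51410), a more distant LUC7 gene, went the other way in Ler. It had 30.3, 27.4 and 28.2 CPM in Ler prmt5-5 against 35.7, 34 and 32.4 CPM in Ler WT, and 37.1, 38.1 and 37 CPM in Col prmt5-5 against 34.3, 35.1 and 31.8 CPM in Col WT. All mutant libraries lay below WT in Ler and above WT in Col. It fell by 0.25 on the log2 scale in Ler (SE 0.07, adjusted p = 0.00945), its change in Col was 0.15 (SE 0.07, adjusted p = 0.108), and it was the single member of 48 whose effect differed between the accessions (-0.40, SE 0.09, adjusted p = 0.0318; 3.35% of all genes differed, 1.59% upwards and 1.76% downwards). That call was lost in 9 of the 12 fits that each left out 1 library (adjusted p up to 0.0971); it held without Col WT replicate 2, Ler WT replicate 3 or Ler prmt5-5 replicate 1. Its sign was the same in all 12.

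The alleles of LUC7RL within the hybrids moved in the same direction. The Ler allele gave 44.4%, 48% and 40.7% of the allele counts in F1 Col x Ler prmt5-5 against 54.5%, 51.8% and 49.1% in its WT, and 49.7%, 42.6% and 41.4% in F1 Ler x Col prmt5-5 against 49.4%, 48.6% and 51.1% in its WT. Within F1 Col x Ler the genotypes did not overlap, and within F1 Ler x Col 1 mutant library lay among the WT values. Over both crosses the share was 44.1% of 6356 counts in prmt5-5 and 50.1% of 6886 counts in WT, a change of the Ler to Col ratio of -0.36 (SE 0.09, adjusted p = 0.00867; the change had an adjusted p of 0.0615 without F1 Col x Ler prmt5-5 replicate 3). The 20 genes around LUC7RL with enough allele counts had a median Ler share of 50.7% in prmt5-5 hybrids and 49.2% in WT hybrids. The summed level of LUC7RL did not pass the test in either cross (0.01 and -0.12).

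**Figure D3:**
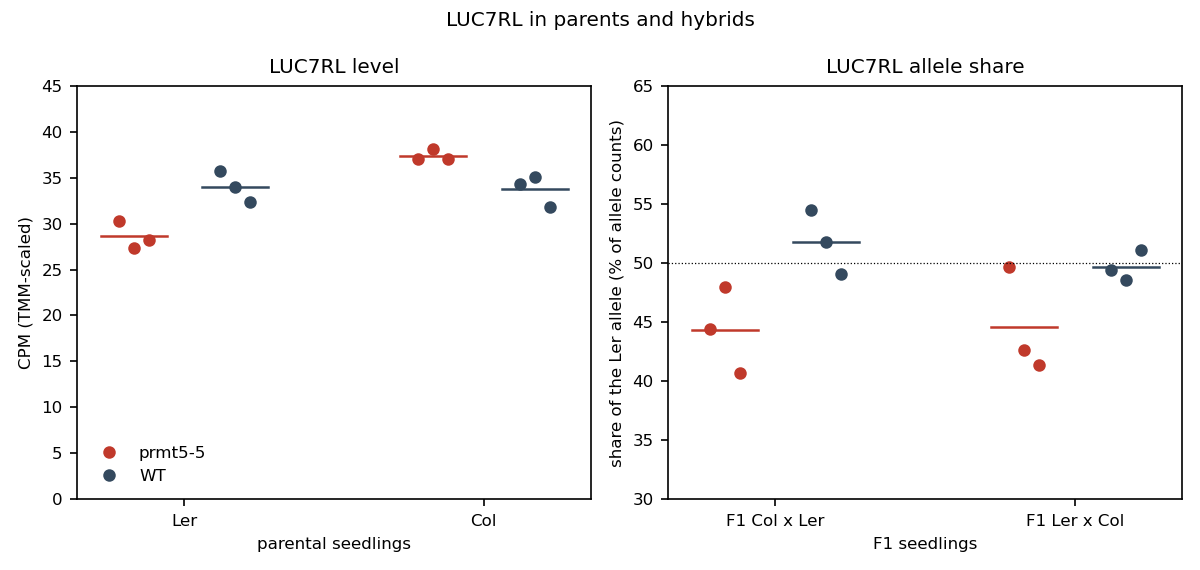
LUC7RL in each library: left, CPM in Ler and Col seedlings; right, share of the Ler allele in allele counts of both hybrids (axis from 30% to 65%), prmt5-5 in red left of WT in dark blue, short lines for means and a dotted line at 50%. In Ler the prmt5-5 libraries lie between 27.4 and 30.3 CPM and the WT libraries between 32.4 and 35.7 CPM.

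PRP40A was the other member whose allele ratio changed with genotype, out of 35 tested (3.93% of 16650 genes changed, 1.12% upwards and 2.82% downwards). Its Ler share was 50.7%, 53.2% and 54.9% in F1 Col x Ler prmt5-5 against 54.2%, 60.5% and 58.6% in its WT, and 49.1%, 56% and 54.8% in F1 Ler x Col prmt5-5 against 59.6%, 57% and 57.6% in its WT. The groups overlap in the first cross and not in the second, and the change of the ratio over both was -0.28 (SE 0.07, adjusted p = 0.0142). It was lost without F1 Col x Ler WT replicate 2, F1 Col x Ler prmt5-5 replicate 1 or F1 Ler x Col prmt5-5 replicate 1 (adjusted p up to 0.0864).

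Of the U5 genes, PRP8B (AT4G38780) changed most. It is the minor of 2 genes for PRP8, the core scaffold of the active site. It had 7.85, 7.23 and 8.9 CPM in Col prmt5-5 against 3.06, 2.92 and 2.73 CPM in Col WT, and 6.37, 10.6 and 9.23 CPM in Ler prmt5-5 against 4.29, 4.65 and 4.63 CPM in Ler WT. Mutant and WT libraries were apart in both accessions, with rises of 1.46 (SE 0.16, adjusted p = 2.79e-05) in Col and 0.95 (SE 0.16, adjusted p = 0.000496) in Ler. In the hybrids it rose by 0.87 (SE 0.22, adjusted p = 0.0348) in F1 Col x Ler, a call lost without any 1 of the 6 libraries of that cross (adjusted p up to 0.147), and by 1.05 (SE 0.22, adjusted p = 0.00566) in F1 Ler x Col.

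The level of PRP8B stayed low in all groups. It was the lowest of the 48 genes per length, with 0.403 CPM per kilobase in Col WT, where SmD2b had 81.1. PRP8A (AT1G80070), the main copy, had 295, 345 and 372 CPM in Col prmt5-5 against 299, 236 and 290 CPM in Col WT, which overlap, and its changes of 0.29 in Col (adjusted p = 0.166) and 0.30 in Ler (adjusted p = 0.134) did not pass the test. PRP8B therefore made up 2.43% of the pair in Col prmt5-5 and 1.1% in Col WT, and 2.86% in Ler prmt5-5 and 1.86% in Ler WT. The PRP8B gene body overlaps the annotated gene AT4G38781 on the same strand by 42 bases, and reads of such stretches and of near-identical copies could be assigned in ways the sources used here do not give.

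The helicase gene BRR2B (AT2G42270) had 81.9, 87.3 and 78.1 CPM in Col prmt5-5 against 62.1, 64 and 66.3 CPM in Col WT, a rise of 0.36 (SE 0.08, adjusted p = 0.00357). In Ler its change was 0.13 (adjusted p = 0.205), and the accessions did not differ by the test (-0.23, adjusted p = 0.297). BRR2A, which supplies most of the BRR2 transcript, and the GTPase gene GFA1 did not pass the test in any of the 4 backgrounds, with changes between -0.16 and 0.32.

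STA1 (AT4G03430), a PRP6-like protein that ties U5 to U4/U6 and is known in this plant for stress tolerance, rose in all 4 backgrounds. It had 74, 74.9 and 78.5 CPM in Col prmt5-5 against 56.4, 51.6 and 58.2 CPM in Col WT, and 60.6, 77.6 and 74.5 CPM in Ler prmt5-5 against 52, 53.3 and 50.6 CPM in Ler WT. No mutant library overlapped the WT libraries of its accession, and the rise was 0.45 in both (SE 0.09; adjusted p = 0.00167 in Col and 0.00131 in Ler). In F1 Col x Ler the values were 40.9, 48.4 and 51 CPM in prmt5-5 against 31.1, 33.4 and 35.1 CPM in WT, and in F1 Ler x Col 44.8, 58.1 and 50.7 CPM against 29.4, 33.3 and 33.6 CPM. The rises were 0.49 (adjusted p = 0.0491, lost in 9 of the 12 fits that each left out 1 library) and 0.67 (SE 0.13, adjusted p = 0.00489). PRP31, which binds the U4 RNA, rose by 0.18 in Ler (adjusted p = 0.0361, lost in 5 of the 12 such fits) with 56.3, 59.7 and 58 CPM in prmt5-5 against 50, 51 and 52.5 CPM in WT, and LIS, a PRP4-like WD40 protein of U4/U6, did not pass the test in any background.

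Of the 7 Sm ring genes, SmEa alone rose in Col, and SmEa, SmGa, SmF, SmD2a and SmD2b rose in Ler. These are 14.3% of the class in Col and 71.4% in Ler, where 14.6% and 18.9% of all genes rose. All 7 have exon lengths under 1100 bases, and of all such short genes 8.01% rose in Col and 16.9% in Ler. SmEa (AT2G18740) had 47.6, 42.1 and 38.5 CPM in Ler prmt5-5 against 33.5, 30.1 and 30.6 CPM in Ler WT, and 35.2, 34.2 and 34 CPM in Col prmt5-5 against 26.5, 31.4 and 27.8 CPM in Col WT. The groups did not overlap in either accession, with rises of 0.45 (SE 0.09, adjusted p = 0.00123) in Ler and 0.27 (SE 0.09, adjusted p = 0.0298) in Col, the second lost in 5 of the 12 fits without 1 library. In Ler SmF was lost in 2 such fits, SmD2a in 8 and SmD2b in 11. Its paralog SmEb had a change of 0.26 in Col and 0.30 in Ler, neither past the test.

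SmGa (AT2G23930) had 72.6, 63.4 and 60.6 CPM in Ler prmt5-5 against 53.9, 43.8 and 47.3 CPM in Ler WT and rose by 0.44 (SE 0.09, adjusted p = 0.00159), and in Col its change was 0.21 (adjusted p = 0.0974). SmGb, the second SmG gene, changed by 0.25 in Ler and 0.13 in Col, neither past the test. In Ler prmt5-5 the replicate with the highest SmEa and SmGa values was the same one, replicate 1, which also had the highest index of short over long transcripts among the parental libraries. Without it both still passed in Ler, as they did in each of the 12 fits without 1 library (adjusted p up to 0.00725 for SmEa and 0.00935 for SmGa) and with the length index as a covariate. No difference between the accessions in the effect of the mutation passed the test for any Sm gene, with values from 0.04 to 0.23.

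SmF and SmEb lie on chromosome 4 in a stretch where prmt5-5 hybrids gave almost no Ler allele counts. The 20 tested genes around each had a median Ler share of 0.421% (SmF) and 0.25% (SmEb) in prmt5-5 hybrids, against 52% and 52.3% in WT hybrids. For both genes, the effects of prmt5-5 and of Col DNA kept in the Ler mutant cannot be told apart. LUC7A on the top arm of chromosome 3 lies where the neighbours had a median Ler share of 26.5% in prmt5-5 hybrids and 48% in WT hybrids. For LUC7A too, in Ler and the hybrids, prmt5-5 and Col DNA kept in part of the mutant material cannot be told apart. The other 45 members lie where the median Ler share was between 47.7% and 53.6% in prmt5-5 hybrids.

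The LSm genes also passed the test more often in Ler, and for no LSm gene did the difference between the accessions pass it (0.04 to 0.20). Of all genes tested, 14.6% rose in Col and 18.9% in Ler. All 10 LSm genes have exon lengths under 1100 bases, and of all such short genes 8.01% rose in Col and 16.9% in Ler. By edgeR 0 of 10 passed the test in Col (1 at an unadjusted p under 0.05; DESeq2 called the same 12 members in Col as edgeR), while 6 rose in Ler (LSM1B, LSM2, LSM5, LSM6A, LSM7 and LSM8), and all 10 changes were positive in both accessions, ranging over 0.02 to 0.24 in Col and 0.18 to 0.39 in Ler. LSM8 (AT1G65700), which marks the nuclear ring of U6, had 14.7, 12.5 and 14.3 CPM in Ler prmt5-5 against 10.8, 10.9 and 9.98 CPM in Ler WT, and 13.7, 12.5 and 12.2 CPM in Col prmt5-5 against 10.2, 11.5 and 11 CPM in Col WT. Mutant values were above WT values in both accessions, but the change of 0.24 in Col missed the threshold (SE 0.09, adjusted p = 0.0649), whereas that of 0.39 in Ler passed it (SE 0.09, adjusted p = 0.0041). In F1 Ler x Col LSM8 rose by 0.58 (SE 0.15, adjusted p = 0.0211), with 43, 41.4 and 53.4 CPM in prmt5-5 against 30.4, 32.1 and 29.1 CPM in WT, a call lost without WT replicates 1 or 3 or prmt5-5 replicate 3 of that cross (adjusted p up to 0.1).

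LSM7, a ring subunit present in both LSm complexes, had 26.9, 25.3 and 24.6 CPM in Ler prmt5-5 against 21.5, 21.7 and 21 CPM in Ler WT and rose by 0.26 (SE 0.07, adjusted p = 0.0114). LSM5, the subunit known from the sad1 mutant that is sensitive to drought and abscisic acid, had 24.7, 22.5 and 22.4 CPM in Ler prmt5-5 against 18.6, 19.1 and 17.9 CPM in Ler WT and rose by 0.33 (SE 0.09, adjusted p = 0.0117). In LSM1, LSM3 and LSM6, each present as a pair of genes, the shares of the first copy overlapped between prmt5-5 and WT in both accessions. LSM1B was not called in Ler in 3 of the 12 fits without 1 library, LSM6A in 2 and LSM2 in 9. The LSM1A share was 62% in Col prmt5-5 and 62.4% in Col WT, and the LSM6A share was 52.7% and 51.6%.

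**Figure D4:**
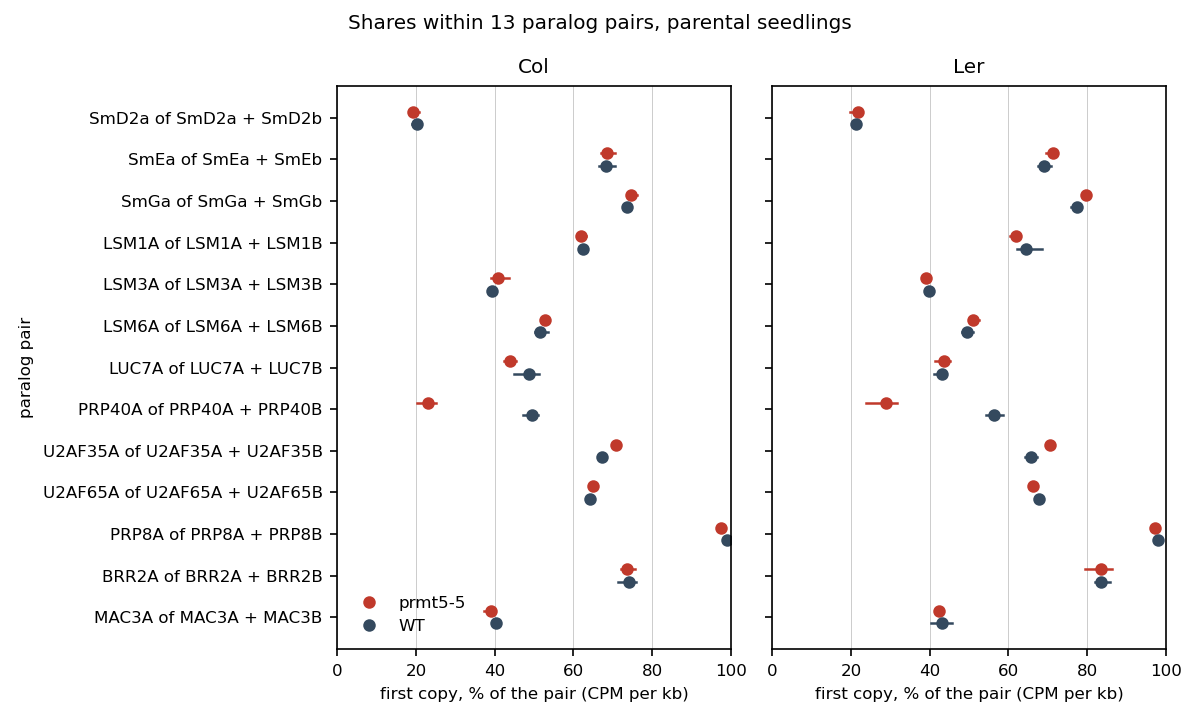
Share of the first copy in 13 paralog pairs, as a percentage of the summed CPM per kilobase of exon, in Col (left) and Ler (right) seedlings; points are means of 3 libraries and bars their range, prmt5-5 in red above WT in dark blue. The PRP40 pair stands at 23.1% in Col prmt5-5 and 49.6% in Col WT.

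Changes of U2 and U2AF genes were small in size in the parents. By edgeR 0 of the 8 passed the test in Col (1 at an unadjusted p under 0.05, 0 by DESeq2), where changes lay between -0.07 and 0.17 and 14.6% of all genes rose. In Ler U2A, U2B and U2AF35A rose by 0.25, 0.25 and 0.21, which is 3 of the 8 (37.5%), where 18.9% of all genes rose. U2A, which with U2B binds a stem of the U2 RNA, had 47.4, 45.7 and 44.1 CPM in Ler prmt5-5 against 41, 36.9 and 37.5 CPM in Ler WT (adjusted p = 0.0105). U2B had 29.6, 27.9 and 29.1 CPM in Ler prmt5-5 against 22.8, 23.8 and 26.5 CPM in Ler WT (adjusted p = 0.0142). The groups were apart in both genes. Their Ler calls and that of U2AF35A held in all 12 fits without 1 library, except that U2B was lost without Ler WT replicate 1 and U2AF35A without Ler WT replicate 2 or Ler prmt5-5 replicate 1. In F1 Ler x Col U2B rose by 0.43 (adjusted p = 0.0324) and U2AF35A, the subunit that reads the acceptor AG, by 0.41 (adjusted p = 0.0365), with U2AF35A at 83.2, 74.7 and 92.2 CPM in prmt5-5 against 65.8, 63.8 and 59.1 CPM in WT. Both hybrid calls were lost without WT replicates 1 or 3 of that cross, among others (adjusted p up to 0.112 and 0.139). They were 2 of the 8 genes (25%), where 6.91% of all genes rose in that cross.

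Of the 13 pairs, the shares of mutant and WT libraries were apart in both accessions in 3, namely PRP40, PRP8 and U2AF35. The SmG and U2AF65 pairs were apart in Ler only, and the MAC3 pair in Col only. How often the shares of other gene pairs lie apart was not counted, so the pair shares are a description without a test. U2AF35A made up 70.8% of its pair in Col prmt5-5 (range 70.1% to 71.4%) and 67.2% in Col WT (66.5% to 68.4%), and 70.6% in Ler prmt5-5 (69.6% to 71.6%) and 65.6% in Ler WT (64.3% to 67.2%). U2AF35B itself had changes of -0.07 in Col and -0.12 in Ler, neither past the test, and its gene body overlaps 3 annotated genes on the other strand, so its counts are uncertain where strand was not used. The same limit holds for U2AF35A, which overlaps AT1G27640 on the other strand by 356 bases. The large subunit genes U2AF65A and U2AF65B, the branch point binding gene SF1 and SF3B1, which clamps the branch helix, did not pass the test in any background, with changes between -0.07 and 0.17 in the parents.

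Of the 6 genes of the NTC class, 1 passed the test in Col and in Ler. This is 16.7% in each accession, near the 14.6% of all genes that rose in Col and the 18.9% in Ler. PRL1 (AT4G15900), a WD40 protein of the complex, had 78.7, 75.4 and 81.4 CPM in Col prmt5-5 against 70, 67.2 and 71 CPM in Col WT, and 86.4, 90.1 and 91.5 CPM in Ler prmt5-5 against 73.2, 72.3 and 69.4 CPM in Ler WT. It rose by 0.32 in Ler (SE 0.06, adjusted p = 0.00145), and its rise of 0.18 in Col (adjusted p = 0.0482) was lost in 11 of the 12 fits without 1 library. CDC5, SKIP, the ubiquitin ligase genes MAC3A and MAC3B and the step 2 factor PRP18 had changes between -0.03 and 0.10 in the parents, none past the test. CDC5 had 98, 104 and 109 CPM in Col prmt5-5 against 106, 94.8 and 102 CPM in Col WT, and the groups overlap.

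Between WT seedlings of the accessions, 7 of the 48 genes were higher and 1 lower in Ler (29.8% of all genes differed, 14.5% higher and 15.2% lower), and between prmt5-5 seedlings 8 were higher and 2 lower (28.1% of all genes, 14% higher and 14.1% lower). BRR2B showed the largest difference of the 48. It had 38.1, 31.8 and 34.7 CPM in Ler WT against 62.1, 64 and 66.3 CPM in Col WT, and 40, 35.5 and 39.3 CPM in Ler prmt5-5 against 81.9, 87.3 and 78.1 CPM in Col prmt5-5. Every Ler library was below every Col library of its genotype, with log2 differences of -0.88 in WT (SE 0.08, adjusted p = 1e-06) and -1.11 in prmt5-5 (SE 0.08, adjusted p = 7.35e-08). In the hybrids the Ler allele of BRR2B gave 30.4% of 3499 allele counts in prmt5-5 and 31.8% of 3176 in WT, and the allelic differences were -1.21 (SE 0.08, adjusted p = 5.59e-17) and -1.10 (SE 0.08, adjusted p = 3.83e-15). The reference named for alignment, TAIR10, is a Col genome. Whether Ler reads were aligned or assigned less fully than Col reads was not tested, for BRR2B or for the other accession and allele differences given here.

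PRP40A was higher in Ler than in Col in WT seedlings, at 47.4, 48.5 and 46.1 CPM against 36.7, 32.7 and 37.3 CPM (0.41, SE 0.08, adjusted p = 0.000779), and its Ler allele exceeded the Col allele in WT hybrids by 0.46 (SE 0.05, adjusted p = 1.63e-09) and in prmt5-5 hybrids by 0.18 (SE 0.05, adjusted p = 0.00457). PRP8B was higher in Ler WT, by 0.64 (SE 0.17, adjusted p = 0.00955), while its alleles did not differ by the test in WT hybrids (-0.36, SE 0.25, adjusted p = 0.312). The other accession calls were small: SmD2a, LUC7B, U2AF65A, SKIP and PRP18 were higher in Ler WT by 0.20 to 0.32. U2AF65A, the large U2AF subunit, had 180, 156 and 164 CPM in Ler WT against 133 CPM in each Col WT library. Among these, the calls of SmD2a, LUC7B and SKIP were lost in 4 of the 12 fits without 1 library and that of PRP18 in 8. In prmt5-5 seedlings SmD2a, SmEa, SmGa, SmD2b, LSM3B, U1-70K, PRP18 and PRL1 were higher in Ler by 0.19 to 0.45. Of these calls, SmGa was lost in 2 of the 12 fits without 1 library, SmD2b in 3, LSM3B in 4, U1-70K in 5 and PRL1 in 6, and SmD2b and LSM3B were also lost with the length index as a covariate (adjusted p = 0.0616 and 0.066). LUC7RL was lower in Ler prmt5-5 (-0.39, SE 0.07, adjusted p = 0.000512).

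Between alleles of the same hybrid, 6 of 35 members had a higher and 6 a lower Ler allele in WT (30% of 16650 genes differed, 14.1% higher and 15.9% lower), and 7 a higher and 9 a lower one in prmt5-5 (33.3% of genes, 14.5% higher and 18.7% lower). U2AF65B had a Ler share of 59.8% in WT hybrids and 60.8% in prmt5-5 hybrids, an allelic difference of 0.60 in WT (SE 0.08, adjusted p = 1.83e-08), where its level in the accessions did not differ by the test (0.10, adjusted p = 0.32). In both genotypes SmGb and LSM7 leaned to Col. SmGb had a Ler share of 45.8% in prmt5-5 and 44.3% in WT, and LSM7 one of 47.1% and 45.3%. LUC7A had 67 Ler counts of 383 in prmt5-5 hybrids and 64 of 173 in WT hybrids, and its neighbours' lowered Ler share in mutant hybrids is given above.

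Of 34 members that could be tested, the parental difference in WT departed from the allelic difference in 3, where 11.9% of 15633 genes did, 5.73% upwards and 6.19% downwards. These were U2AF65B (-0.50, SE 0.11, adjusted p = 0.00245), PRP8B (0.99, SE 0.31, adjusted p = 0.0406, lost in 9 of the 12 fits without 1 library, with adjusted p up to 0.114) and LIS. The Ler allele of LIS had 1 of 681 allele counts in prmt5-5 hybrids and 0 of 467 in WT hybrids, which allows a share of up to 0.642%, although LIS had 15.8, 16.9 and 17.2 CPM in Ler WT seedlings and 16.3, 15.3 and 17.3 CPM in Col WT seedlings. The rule for assigning reads to alleles is not stated, and whether the allele counts and calls of LIS reflect its expression was not tested. No fold is given for LIS.

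**Figure D5:**
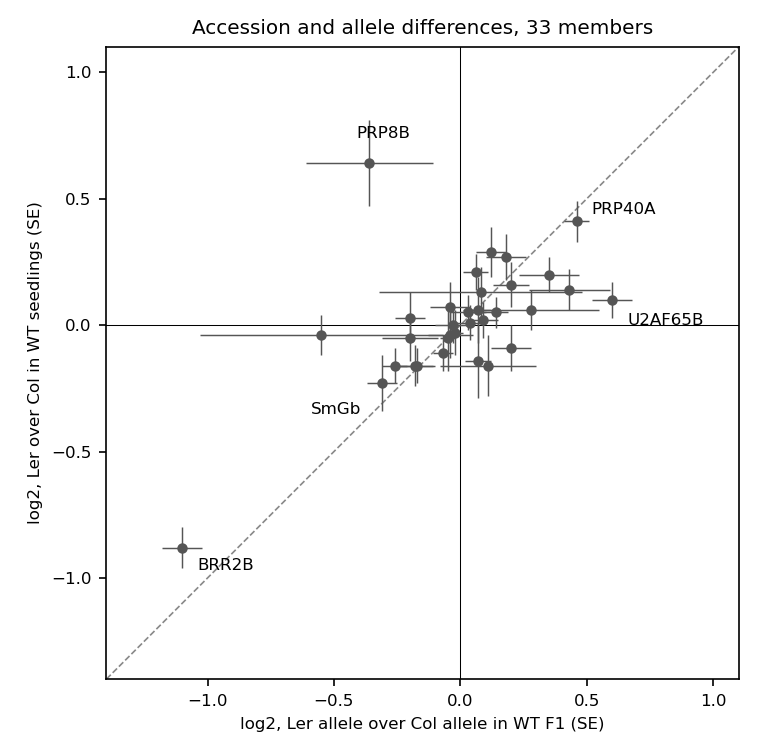
Log2 difference of Ler over Col in WT seedlings (vertical axis) against that of the Ler over the Col allele in WT hybrids (horizontal axis) for 33 of the members, with SE as bars and a dashed line of equality; LIS (0 Ler counts) and U2AF65A (6 to 43 counts per library) are left out. BRR2B lies at -0.88 and -1.10, PRP40A at 0.41 and 0.46, and U2AF65B and PRP8B lie away from the line.

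Between the crosses, the effect of prmt5-5 differed for 0 of 35 members by edgeR (0% of 17301 genes; 1 member at an unadjusted p under 0.05) and for 0 by DESeq2 (0.0578% of genes). Changes of the 35 members between the crosses ran from -0.72 to 0.35 with no adjusted p under 0.96.

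A list of 55 other spliceosome genes outside the 48 held 13 NTC genes, 12 U2 genes, 12 genes for step II factors and helicases, 9 for Sm proteins and snRNP assembly and 9 for tri-snRNP proteins. Of 53 tested, 22 rose and 0 fell in Col and 20 rose and 3 fell in Ler, with medians of 0.192 and 0.168. Of all genes tested 14.6% rose in Col and 18.9% in Ler. In Col 41.5% of this list were called in either direction, against 25% of the 48 and 26.9% of all genes. The same shares in Ler were 43.4%, 54.2% and 35.7%. More frequent rises than falls were thus not particular to the 48 genes. Of 38 tested in the hybrids, 9 rose in the Ler x Col cross, 6 rose in the Col x Ler cross, and 0 fell, where 6.91% and 3.7% of all genes rose. Of the markers of dividing cells, 2 of 16 rose in Col and 5 in Ler, with medians of 0.048 and 0.224, and 0 of the 12 tested changed in either hybrid, with medians of -0.256 and -0.165. Photosynthesis genes of leaves fell in the same seedlings. Of 12, 10 fell in Col, 11 in Ler, 9 in the Ler x Col cross and 3 in the Col x Ler cross, and of 12 root markers 1 rose and 1 fell in each accession. The part of tissue makeup in the changes of the 48 genes was not tested.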

How the data were processed

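Polyadenylated RNA of whole seedlings was sequenced as reads of 100 bp, per the labels' protocols. Per the submitters' processing notes, the authors used Trim Galore, FastQC and STAR 2.7.9a with TAIR10; the counting tool, strand setting and rule for assigning F1 reads to alleles are not stated there. Counts were deposited raw, per gene (parents: 36993250 to 72713735 per library; F1: 6047673 to 29376326 allele counts). Low counts were mostly even (63% to 81.2% of them per library), so both ends of a fragment may have been counted and intervals are too narrow.

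All genes were fitted with edgeR 4.0.16 in R 4.3.3 (TMM, filterByExpr, robust quasi-likelihood test, two-sided, Benjamini-Hochberg adjustment over all genes tested, threshold 0.05). The 12 parental libraries, the 12 F1 libraries with alleles summed, and the 24 allele columns with library as a block were fitted apart, and WT parents and WT alleles together for the parental minus allelic difference. Levels are CPM after TMM scaling. Allele intervals are exact binomial at 95%, and the limit for 0 counts is 3 counts of the total. The fits were tested on simulated data: of 67 genes changed by 1.5-fold, 64.2% were recovered in Col and 4.48% in F1 Col x Ler, and of 66 changed by 4-fold 93.9% and 92.4%. Each simulation changed only 200 genes, whereas 26.9% of genes in Col and 5.55% in F1 Col x Ler were called in the data. The adjustment is stricter with fewer changed genes, so recovery in the data may differ from these values. Names and positions come from RefSeq (TAIR10.1). All 48 members matched. Of these, 23 overlap another annotated gene, 18 of them one on the other strand, and their counts are uncertain there.

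The members and lists were chosen with earlier results of these data known. Members named with values are, in each role class and comparison, up to 2 past the threshold with the smallest p and their paralogs; others are given as counts, ranges or examples added after their values were seen. The alternatives were RLE scaling, no count filter, at least 10 counts in every library, DESeq2 1.42.0, a replicate block, halved allele counts, fits of 6 libraries, leaving out each library, and, chosen after seeing the data, the length index as a covariate. Replicate numbers were not treated as pairs in the main fits. Of 18 same-numbered pairs, the deviations correlated above 0.1 in 4 among parents and 9 among F1 libraries. The median correlation of same-numbered F1 pairs was 0.137, against -0.064 for the 36 pairs of unlike number, and among parents -0.11 against 0.02. Structure shared by replicate number in the F1 libraries thus remains possible, and counts with a replicate block are given below.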

Additional observations from a re-analysis of the deposited data

Results flagged for a closer look

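The effect of prmt5-5 on LUC7RL differed between the accessions, by -0.40 on the log2 scale for Ler minus Col in the interaction test. The Ler to Col allele ratio of LUC7RL differed between prmt5-5 and WT hybrids by -0.36, and that of PRP40A by -0.28, in the test of the change itself. Each of these calls was lost without at least 1 single library.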

How the results depend on the processing

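The 97 changes of single genes followed here had all passed the test in the main fit, so that their signs were unlikely to turn. They kept their sign in the 586 alternative results and the 1164 that left out 1 library. Of those results, 46 and 184 no longer passed. With the length index as a covariate, chosen after seeing the data, 26 members were called in Col, 2 in the difference between the accessions and 13 between Ler and Col in WT, against 12, 1 and 8. With only the 6 libraries compared, 17 were called in Ler and 5 in F1 Ler x Col, against 26 and 8. In F1 Col x Ler 1 was called with no filter on low counts and 5 by DESeq2, against 3. The parental minus allelic difference had 7 with no filter and 1 with at least 10 counts in every library, against 3. The causes were not tested. Leaving out each library gave 8 to 19 calls in Col, 17 to 26 in Ler, 0 to 2 for their difference, 4 to 9 for Ler against Col in WT, 5 to 11 in prmt5-5, 1 to 4 in F1 Col x Ler, 3 to 9 in F1 Ler x Col, 0 to 0 for the difference between crosses, 9 to 13 between alleles in WT, 13 to 18 in prmt5-5, 1 to 2 for the change of the allele ratio and 2 to 3 for the parental minus allelic difference. With a replicate block the counts were 11 in Col, 23 in Ler, 1 for their difference, 7 and 10 for Ler against Col, 2 and 7 in the hybrids and 0 between crosses; the labels do not say that the numbers pair samples. The hybrid comparisons rest on allele counts alone, which were too few to test 13 members, PRP39A among them with 95 over 12 libraries, where SmD2a had 5909.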

Other observations

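The 48 genes differ widely in structure. Their longest RefSeq transcript models hold between 0 and 28 introns with a median of 4, against a median of 3 for the 27395 other protein-coding genes. PRP40B has 28 introns and PRP40A 27, the PRP8 genes have 23 each, and STA1 has 1.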
